A study of Mus musculus with 4 samples.

Results

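The genes described here are 10 genes of the p53 and senescence cell cycle inhibitor pathways, out of 22835 genes with a level in the deposited values. They form a list of names with no threshold on their values, and all listed exons of each gene were used. They are Cdkn2a, Cdkn2b, Cdkn1a, Trp53, Mdm2, Ccng1, Bbc3, Zmat3, Phlda3 and Bax. The study sequenced poly(A) RNA of mouse embryonic fibroblasts (MEFs) to ask how far the melanocyte form of Mitf, a transcription factor that directs the pigment cell lineage, changes their expression. There was 1 RNA-seq library for each of 4 conditions, and 3 libraries were analysed here. The library labelled MEF was taken, by its name alone, as that of wild type MEFs at passage 3. The Dox (-) library came from untreated Mitf knock-in MEFs at passage 5. The Dox (+) library came from Mitf knock-in MEFs at passage 5 after 6 days of doxycycline (Dox). Whether both came from 1 culture is not given in the sources used here. Primary mouse melanocytes, at passage 5, were not analysed here.

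Both knock-in libraries carry M2rtTA, the Dox-dependent transactivator, at the ROSA26 locus, a Mitf transgene under a tet operator at the Col1a1 locus, and mCherry. The cells descend from 1 correctly targeted clone of mouse embryonic stem cells and were taken from chimeric embryos, which also hold host cells, and carried mCherry and puromycin resistance by which transgenic cells could be separated from host cells. The strain of the wild type MEFs was not given in the sources used here. The values of the library labelled MEF are other than those that the study itself lists for MEFs. Whether it is the wild type MEF sample was therefore not settled, and the results describe the deposited library under that label. Passage, genotype and origin of the culture differ together between that library and the knock-in libraries, and their parts cannot be told apart. None of the conditions was wild type MEFs with Dox, so Dox itself and Mitf cannot be told apart between Dox (+) and Dox (-). With 1 library per condition there was no replicate check and no test. All intervals below are 95% intervals for the counting error of the reads, and they hold no spread between cultures.

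p53, the product of Trp53, is a transcription factor that is held at a low amount by the ubiquitin ligase Mdm2, itself a p53 target. When p53 is stabilised it raises Cdkn1a, whose product p21 inhibits cyclin-dependent kinases, and a set of further targets that act in arrest or apoptosis. The Cdkn2b and Cdkn2a genes lie side by side. Cdkn2b encodes p15Ink4b and Cdkn2a encodes p16Ink4a, both inhibitors of Cdk4 and Cdk6, while p19Arf, the other product of Cdkn2a, binds Mdm2 and thereby spares p53. In cultured MEFs the products of the locus and p21 are known to accumulate with passage as the cells approach senescence.

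The sequences at the start of the Cdkn2a transcripts are shown because the exon results below turn on which first exon a read belongs to. On the minus strand of mm10, exon 1β of transcript Cdkn2a-202 occupies chr4:89294334-89294653 and exon 1α of transcript Cdkn2a-201 occupies chr4:89281986-89282192, within the first intron of Cdkn2a-202. The first 60 coding bases of each exon were taken from the GENCODE M21 transcripts and are given with the start codon in capitals.
p16Ink4a from exon 1α, chr4:89282052-89282111: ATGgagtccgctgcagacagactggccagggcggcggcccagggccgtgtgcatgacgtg
p19Arf from exon 1β, chr4:89294464-89294523: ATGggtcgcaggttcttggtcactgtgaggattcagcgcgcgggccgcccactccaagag
Exon 1α holds 126 coding bases and exon 1β holds 190. Divided by 3 these leave 0 and 1 bases, so both transcripts continue into the same exon 2 in different frames. The first 30 bases of exon 2, chr4:89276956-89276985, are given for each transcript with every other whole codon in capitals.
Exon 2 read after exon 1α: GTGatgATGatgGGCaacGTTcacGTAgca
Exon 2 read after exon 1β: gtGATgatGATgggCAAcgtTCAcgtAGCa
The reading frames give a p16Ink4a of 168 residues and a p19Arf of 169 residues. A read on exon 2 or exon 3 does not show which product its transcript encoded.

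The deposited values are RPKM per annotated exon, that is reads per kilobase of exon scaled to the number of aligned reads. Of 132 annotated exons of the 10 genes, 74 were listed. Multiplied by exon length, low RPKM values returned whole reads for 96.8% to 97.1% of exons at library sizes of 45000000 reads for MEF and Dox (-) and 44000000 reads for Dox (+), and reads were taken from these sizes. The level of a gene was the RPKM of its highest exon, and a difference was called where a gene was above 10 RPKM in at least 1 of 2 libraries and more than 4-fold apart in RPKM, with no pseudocount. The highest exon could be another one in the other library, whereas each fold printed with an interval compares reads on 1 exon. A lower threshold of 2-fold is given beside it. Over all tested genes the median ratio was 1.17 for Dox (+) over Dox (-), 1.01 for Dox (-) over MEF and 1.21 for Dox (+) over MEF. The cause of these shifts was not tested. Folds divided by these medians are called rescaled.

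Whether reads spliced across an intron were also counted on exons lying inside that intron is not given in the sources used here, and the values leave it possible. In Dox (-), 62 exons of other genes lay within introns between listed exons above 300 RPKM, and 0 of them had 0 reads, with 74 reads at the lowest, whereas 7.39% of all 228132 matched exons had 0 reads. Of 71 distinct exon positions of the 10 genes, 10 lay within an intron of another transcript of the same gene. Positions are distinct where start or end differs, so some of them overlap and share reads. Introns of expressed genes also hold unspliced and overlapping transcripts, so how spliced reads were counted was not settled. The 10 positions include exon 1α of Cdkn2a and the highest exons of Cdkn1a and Ccng1, and the values of other exons of these genes are therefore given beside them.

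Mitf, the induced gene, was at 1.52 RPKM in MEF, 30.8 RPKM in Dox (-) and 1544 RPKM in Dox (+). This checks the labels Dox (-) and Dox (+) against each other and does not identify the MEF library. Untreated Dox (-) exceeded MEF by 20.8-fold (8.63 to 65.4), from 104 and 5 reads, and the cause was not tested. Of 8 fibroblast markers, 7 were above 10 RPKM in MEF and 8 in each knock-in library, but their levels were not alike. They summed to 18350 RPKM in MEF, 45433 RPKM in Dox (-) and 11943 RPKM in Dox (+), 3 passed 4-fold upward from MEF to Dox (-), and 4 passed it downward from Dox (-) to Dox (+). Macrophage markers differed further. Their summed level was 50.8 RPKM in MEF, 12955 RPKM in Dox (-) and 468 RPKM in Dox (+), and 8 of 8 were above 10 RPKM in Dox (-) against 2 in MEF and 4 in Dox (+). Each of the 8 was more than 4-fold lower in Dox (+) than in Dox (-). No marker of the list was at 0 in Dox (-), and Fcgr1 was at 0 in MEF. In bulk RNA fewer cells of a type and less RNA per cell cannot be told apart. The part of these cell types in the levels of the 10 genes was not tested.

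By the highest exon in each library Cdkn1a was the one member past the 4-fold threshold in any comparison, and more members passed 2-fold between the knock-in libraries and the library labelled MEF than between Dox (+) and Dox (-). In Dox (-) against MEF, 1 of the 9 members tested was more than 4-fold higher, where 8.26% of all 13234 tested genes were, and 0 were more than 4-fold lower, where 1.21% were. At 2-fold, 5 of 9 were higher, against 17.3% of all tested genes, and 0 were lower, against 7.93%. In Dox (+) against MEF the member counts were the same, 1 and 0 at 4-fold against 6.55% and 3.4% of 12941 tested genes, and 5 and 0 at 2-fold against 20.2% and 8.98%. Read on the same exon in both libraries, the counts for Dox (+) over MEF were 2 at 4-fold, with Mdm2 beside Cdkn1a, and 6 at 2-fold, with Cdkn2a added, while the other counts were the same. In Dox (+) against Dox (-), 0 of 9 passed 4-fold in either direction, against 1.64% higher and 5.41% lower among 13307 tested genes. Trp53 alone was more than 2-fold higher there, which is 1 of 9 members against a background of 10.8%, and 0 were more than 2-fold lower against 11.1%. The share past 2-fold in Dox (+) against Dox (-) was thus near the background. Bbc3 was below 10 RPKM in all 3 libraries and was not tested.

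The median log2 fold change of the 9 tested members, after adding a pseudocount of 1 RPKM, was 1.18 for Dox (-) over MEF and 1.54 for Dox (+) over MEF, where the medians of all tested genes were 0.01 and 0.27. For Dox (+) over Dox (-) it was 0.36, where the median of all tested genes was 0.23. The 3 comparisons share libraries and are not independent of each other.

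**Figure D1:**
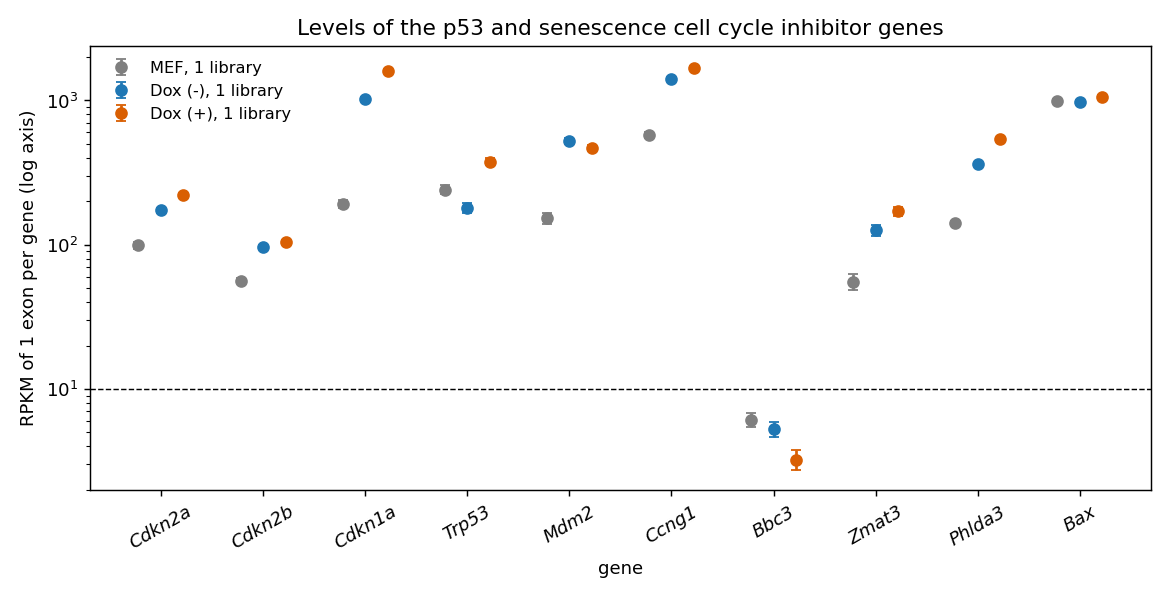
RPKM, on a log axis, of 1 exon per gene for the 10 genes in the 3 libraries, with 95% counting intervals; the exon is the one highest over the 3 libraries, and the dashed line marks 10 RPKM. Cdkn1a lies at 192 RPKM in MEF, 1019 RPKM in Dox (-) and 1602 RPKM in Dox (+), whereas Bax lies between 983 and 1056 RPKM in all 3 and Bbc3 lies below the line.

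Cdkn1a, on the plus strand at chr17:29090976-29100727, encodes p21, the main arrest effector of p53. Its highest exon, exon 1 of Cdkn1a-201, had 192 RPKM in MEF, 1019 RPKM in Dox (-) and 1602 RPKM in Dox (+). It was thus lowest in MEF and highest in Dox (+), with intervals that did not overlap. The fold was 5.30 (4.92 to 5.72) for Dox (-) over MEF, 8.34 (7.75 to 8.98) for Dox (+) over MEF, and 1.57 (1.51 to 1.63) for Dox (+) over Dox (-), or 1.34 rescaled. In Dox (+) over MEF, 97.3% of tested genes had a lower log2 fold change than Cdkn1a.

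This exon lies inside an intron of Cdkn1a-202 and overlaps an antisense transcript, so its reads may be shared. The last exon of Cdkn1a-201, of 1379 bp, gave the same order at 179 RPKM in MEF, 771 RPKM in Dox (-) and 999.7 RPKM in Dox (+). There the fold of Dox (-) over MEF was 4.31 (4.22 to 4.40) and that of Dox (+) over Dox (-) was 1.30 (1.28 to 1.31). Over 7 exon positions, some of which overlap, Dox (-) exceeded MEF by 3.69-fold to 5.47-fold, with every interval above 1. Exon 1 of Cdkn1a-202, at the upstream start, had 32.3 RPKM in MEF, 139 RPKM in Dox (-) and 151 RPKM in Dox (+). It was the exon that changed least with Dox, at 1.09-fold (0.983 to 1.20), an interval that holds 1, while the exon 2 shared with Cdkn1a-201 differed by 1.86-fold (1.81 to 1.91).

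**Figure D2:**
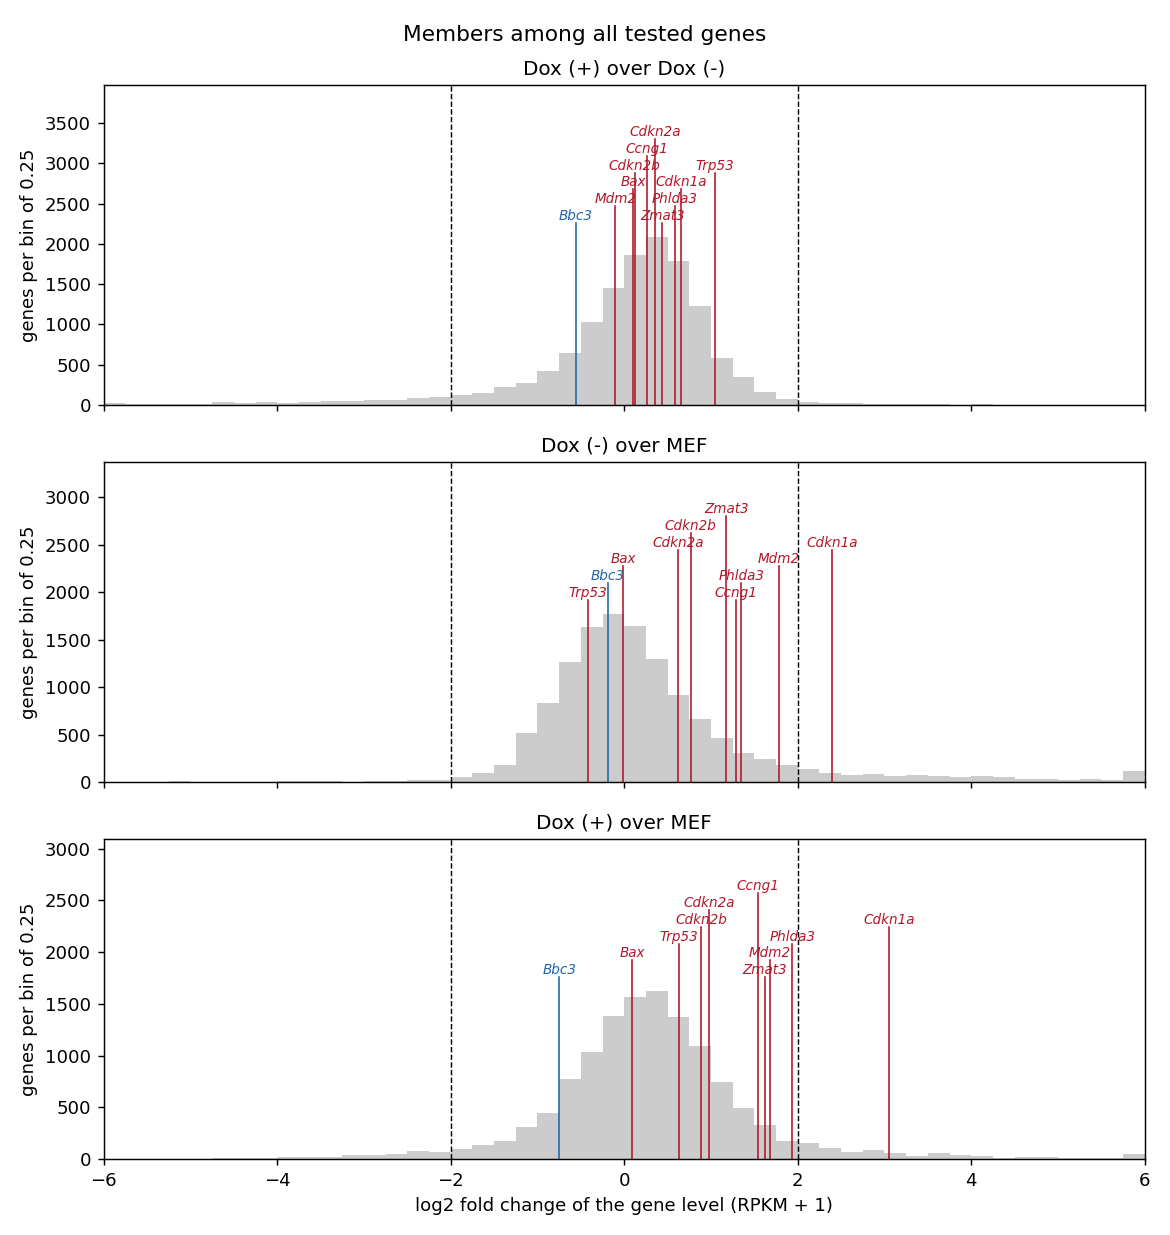
Histograms of log2 fold changes of all tested genes (13307, 13234 and 12941 genes from top to bottom, pseudocount 1 RPKM, values beyond 6 placed in the end bins), with a line for each member, red where it was tested and blue for Bbc3; dashed lines mark a log2 change of 2 in either direction. In the upper panel the members lie within the bulk of genes, and in the lower panels Cdkn1a lies to the right of the dashed line at 2.40 and 3.05.

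Cdkn2a was higher in Dox (-) than in MEF on all of its exons, whereas Dox (+) differed from Dox (-) in opposite directions along the gene. Exon 2, shared by both products, had 98.9 RPKM in MEF, 173 RPKM in Dox (-) and 222 RPKM in Dox (+). It was lowest in MEF and highest in Dox (+). Exon 3 of Cdkn2a-202 followed the same order, with 112 RPKM in MEF, 154 RPKM in Dox (-) and 211 RPKM in Dox (+). Exon 1β, the start of p19Arf, had 47.2 RPKM in MEF, 92.1 RPKM in Dox (-) and 67.1 RPKM in Dox (+). Here Dox (-) was highest. Exon 1α had 67.0 RPKM in MEF, 126 RPKM in Dox (-) and 115 RPKM in Dox (+).

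From Dox (-) to Dox (+) the fold was 1.28 (1.22 to 1.35) on exon 2 and 1.37 (1.29 to 1.47) on exon 3, against 0.729 (0.670 to 0.793) on exon 1β and 0.913 (0.839 to 0.993) on exon 1α. From MEF to Dox (-) exon 1β was 1.95-fold (1.78 to 2.14), exon 1α 1.88-fold (1.70 to 2.07), exon 2 1.75-fold (1.65 to 1.87) and exon 3 1.37-fold (1.27 to 1.48). None of these passed 2-fold. In Dox (+) over MEF exon 2 was 2.25-fold (2.11 to 2.39). Rescaling left exon 2 at 1.09-fold (1.04 to 1.15) in Dox (+) over Dox (-).

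If spliced reads were counted so, reads on exon 1α include reads spliced from exon 1β to exon 2, which also lie on exon 1β, so the reads of exon 1β set an upper limit on them. In MEF exon 1α had 624 reads and exon 1β 680 reads, and in Dox (-) they had 1170 and 1326 reads. In these 2 libraries the limit lay above the reads on exon 1α. It counts all reads on exon 1β, of which only those crossing to exon 2 could add to exon 1α. How many crossed is not given by these values, so the part of such reads on exon 1α was not determined. In Dox (+) exon 1α had 1044 reads and exon 1β 945 reads, an excess of 99 reads on exon 1α. The levels of p16Ink4a and p19Arf transcripts cannot be told apart in MEF and Dox (-) from these counts. Exon 1β, the outermost exon, lies in no intron of the gene.

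**Figure D3:**
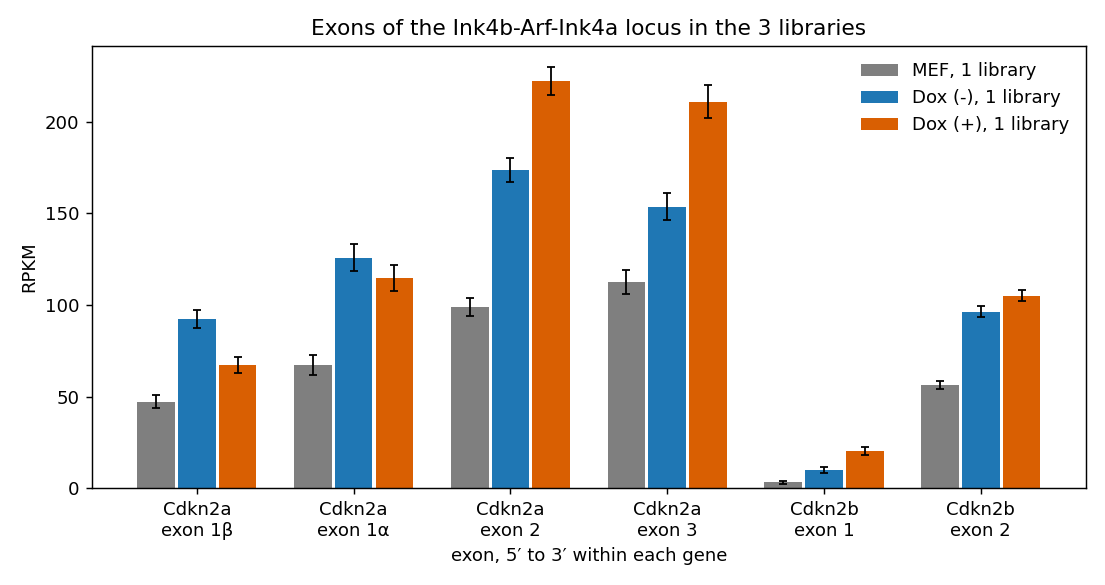
RPKM (bars from 0, with 95% counting intervals) of the exons of Cdkn2a and Cdkn2b in the 3 libraries, ordered from 5′ to 3′ within each gene. On Cdkn2a the Dox (+) bar lies below the Dox (-) bar on exons 1β and 1α (67.1 against 92.1 and 115 against 126 RPKM) and above it on exons 2 and 3 (222 against 173 and 211 against 154 RPKM).

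First exons were low in these libraries, with a median of 12.9% of the highest exon of the gene in MEF, 16.5% in Dox (-) and 19.3% in Dox (+). Between Dox (-) and Dox (+) they gained slightly on the highest exon, with a median log2 double ratio of 0.16 over 5968 genes, and 72.1% of genes were above 0. The same ratio for exon 1β of Cdkn2a was -0.81, and 1.06% of those genes had a lower one. For exon 1 of Cdkn2b it was 0.94, above 96.7% of the genes. The neighbouring genes thus lay toward opposite ends of this distribution.

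Cdkn2b, on the minus strand at chr4:89306299-89311039, encodes p15Ink4b. Its exon 2 had 56.2 RPKM in MEF, 96.3 RPKM in Dox (-) and 105 RPKM in Dox (+). The knock-in libraries were both above MEF and close to each other, with 1.71-fold (1.63 to 1.80) for Dox (-) over MEF and 1.09-fold (1.04 to 1.13) for Dox (+) over Dox (-). Rescaled, the latter was 0.928 (0.890 to 0.967), on the other side of 1. Exon 1 was far lower, with 54 reads in MEF, 163 in Dox (-) and 332 in Dox (+). Its fold was 3.02 (2.21 to 4.19) for Dox (-) over MEF and 2.08 (1.72 to 2.53) for Dox (+) over Dox (-).

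Trp53, on the plus strand at chr11:69580359-69591873, had its highest exon, exon 9, at 241 RPKM in MEF, 181 RPKM in Dox (-) and 375 RPKM in Dox (+). It was the one tested member that was lower in Dox (-) than in MEF beyond counting error, at 0.749-fold (0.673 to 0.833). Dox (+) was highest. The fold of Dox (+) over Dox (-) was 2.08 (1.88 to 2.29), or 1.77 (1.60 to 1.95) rescaled, and 90.8% of tested genes had a lower log2 fold change. On 15 of 15 exon positions Dox (+) was above Dox (-), by 1.53-fold to 2.44-fold and with every interval above 1. Against MEF, 8 of the 15 positions were lower in Dox (-) with an interval below 1 and 0 were higher. The 15 positions include overlapping versions of exons 1 and 11 that share reads, so they are not 15 separate exons. Several of the 8 are versions of exon 11.

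Of the targets among the members, Cdkn1a, Mdm2, Ccng1, Zmat3 and Phlda3 were higher in Dox (-) than in MEF, where Trp53 was lower, whereas the intervals of Bax and Bbc3 held 1. RNA levels say nothing of the amount of p53 protein, which is set largely by its turnover.

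Mdm2, on the minus strand at chr10:117688875-117710758, encodes the ubiquitin ligase that limits p53. Its exon 11 had 152 RPKM in MEF, 525 RPKM in Dox (-) and 470 RPKM in Dox (+). Both knock-in libraries were above MEF and close to each other. The fold was 3.45 (3.13 to 3.81) for Dox (-) over MEF and 0.896 (0.837 to 0.958) for Dox (+) over Dox (-). Over 12 exon positions with more than 3 reads in both libraries, Dox (-) exceeded MEF by 3.41-fold to 5.68-fold with a median of 4.04, so that the highest exon lay toward the low end of the gene. In Dox (+) exon 6 was the highest, and it was 4.33-fold (3.77 to 4.98) that of MEF, past 4-fold, with a median of 4.05 over 12 positions. Between Dox (+) and Dox (-) the positions ran from 0.781-fold to 1.15-fold with a median of 1.00.

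Transcription of Mdm2 is known to start upstream of exon 1 or, under p53, within the first intron. Exon 1 had 0 reads in MEF, 0 in Dox (-) and 3 in Dox (+), while exon 2 had 75, 426 and 478 reads in the same order. The first exon was thus at or below the floor of 3 reads that a count of 0 allows in each library, and a change of it was not detectable at this depth.

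Ccng1, encoding cyclin G1, a p53 target that acts on Mdm2, lies on the minus strand at chr11:40748552-40755311. Its highest exon, exon 4, lies inside an intron of Ccng1-202, so its reads may be shared. It had 577 RPKM in MEF, 1410 RPKM in Dox (-) and 1687 RPKM in Dox (+). By highest exon these were the highest levels of any member in the knock-in libraries. The length-weighted mean over exon positions was higher for Cdkn1a. It was 556 RPKM against 548 RPKM for Ccng1 in Dox (-), and 831 against 546 RPKM in Dox (+). On exon 4 of Ccng1 the fold was 2.44 (2.32 to 2.57) for Dox (-) over MEF and 1.20 (1.15 to 1.24) for Dox (+) over Dox (-). Rescaled, the latter was 1.02 (0.982 to 1.06), an interval that holds 1. The last exon, of 2508 bp, had 242 RPKM in MEF, 509 RPKM in Dox (-) and 455 RPKM in Dox (+). Its fold of Dox (-) over MEF was 2.10 (2.07 to 2.13). For Dox (+) over Dox (-) it lay on the other side of 1 at 0.893-fold (0.882 to 0.903).

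Zmat3, encoding a zinc finger RNA binding protein, lies on the minus strand at chr3:32334792-32366014. Its exon 5 had 55.0 RPKM in MEF, 126 RPKM in Dox (-) and 171 RPKM in Dox (+). MEF was lowest on all 9 of its exon positions, some of which overlap. Dox (-) exceeded MEF by 2.28-fold (1.97 to 2.66), and Dox (+) exceeded Dox (-) by 1.36-fold (1.22 to 1.52), or 1.16-fold (1.04 to 1.29) rescaled. The last exon of Zmat3-201, of 6904 bp, again went the other way from Dox (-) to Dox (+), at 0.830-fold (0.811 to 0.848).

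Phlda3, encoding a pleckstrin homology protein that restrains Akt, lies on the plus strand at chr1:135766119-135769136. Its exon 2 had 141 RPKM in MEF, 361 RPKM in Dox (-) and 542 RPKM in Dox (+), again with MEF lowest and Dox (+) highest. The fold was 2.56 (2.47 to 2.65) for Dox (-) over MEF and 1.5 (1.47 to 1.54) for Dox (+) over Dox (-), or 1.28 (1.25 to 1.31) rescaled. On exon 1 these folds were 2.67 (2.52 to 2.83) and 1.69 (1.63 to 1.76).

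Of the members that act in apoptosis at the mitochondrion, Bax was below 2-fold on its highest exon in all 3 comparisons and Bbc3 was below 10 RPKM in all 3 libraries. Exon 5 of Bax had 989 RPKM in MEF, 983 RPKM in Dox (-) and 1056 RPKM in Dox (+). The libraries were close, at 0.994-fold (0.954 to 1.04) for Dox (-) over MEF and 1.07-fold (1.03 to 1.12) for Dox (+) over Dox (-). Rescaled, the latter was 0.916 (0.880 to 0.954). Toward the 5′ end Dox (-) was above MEF, and over 6 exon positions the fold ran from 0.987 to 1.63, with 3 intervals above 1 and 0 below. Exons of Bax overlap another gene on the same strand, so its reads may be shared. Bbc3, encoding the BH3-only protein PUMA, had 6.13 RPKM in MEF, 5.25 RPKM in Dox (-) and 3.24 RPKM in Dox (+) on its last exon, from 300, 257 and 155 reads. Dox (+) was lowest, at 0.617-fold (0.502 to 0.756) of Dox (-), while the interval of Dox (-) over MEF, 0.722 to 1.02, holds 1.

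**Figure D4:**
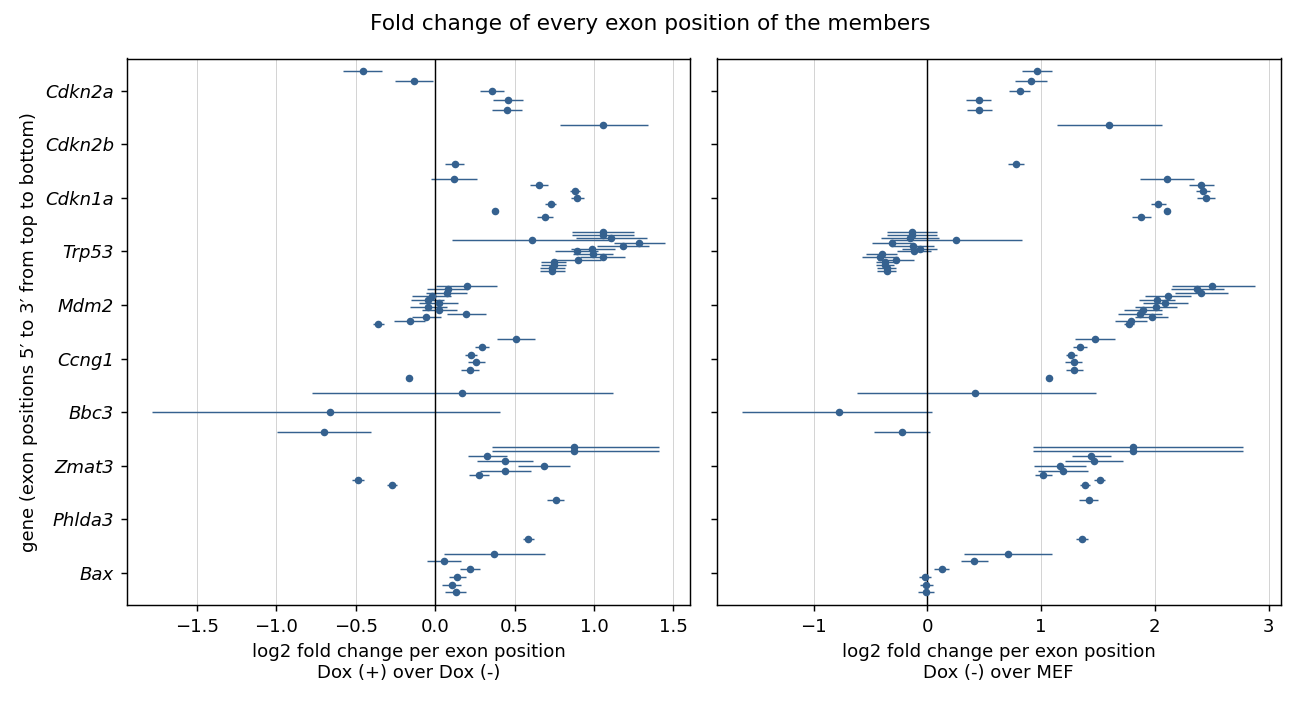
Log2 fold change of every distinct exon position with more than 3 reads in both libraries, with 95% counting intervals, for Dox (+) over Dox (-) on the left and Dox (-) over MEF on the right; within each gene positions run from 5′ at the top to 3′ at the bottom. Trp53 lies above 0 at all 15 positions on the left, Cdkn2a crosses 0 there, and Mdm2 and Cdkn1a lie above 0 at all 12 and 7 positions on the right.

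Last exons were also read against all genes. Over 9849 genes the last exon had a median log2 double ratio to the highest exon of -0.21 for Dox (+) over Dox (-), and 21.3% of genes were above 0. It was -0.71 for Zmat3, -0.42 for Ccng1, -0.31 for Trp53, -0.28 for Cdkn1a, -0.20 for Mdm2, 0.03 for Bax and 0.10 for Cdkn2a. For Bax the exon read was exon 4 of Bax-201, which is followed by exons 5 and 6, so its value is not that of the 3′ end. Of the genes, 9.08% had a lower value than Zmat3 and 86.8% a lower one than Cdkn2a. Of these 7 genes, 5 had a last exon that lost ground to the highest exon in Dox (+), as did most genes, so the size of a fold between Dox (+) and Dox (-) depended on the exon read.

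Over the 3 libraries the genes nearest to Cdkn1a in pattern, by Euclidean distance of centred log2 levels among 13587 genes, were Ern1, Plec and Prrx1, at distances of 0.05, 0.05 and 0.11. Only 2 genes lay within 0.1 of it. Nearest to Cdkn2a were Cyba, Gm5582 and Tnfrsf23, and 153 genes lay within 0.1 of it. With 3 points, such nearness is a description of these libraries.

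Other p53 targets had a higher median in Dox (-) than in MEF and a lower one in Dox (+) than in Dox (-). In a list of 30 further genes known as p53 targets, 29 were tested. Counts of this and the following lists are set against all tested genes, of which 8.26% passed 4-fold upward and 1.21% downward in Dox (-) over MEF, with 17.3% and 7.93% at 2-fold. In Dox (+) over Dox (-) the shares were 1.64% and 5.41%, with 10.8% and 11.1% at 2-fold. In Dox (-) over MEF, 2 were more than 4-fold higher and 12 more than 2-fold higher, with 0 more than 4-fold lower and 1, Perp, more than 2-fold lower, and the median log2 fold change was 0.54, against 0.01 over all tested genes. The 2 were Pmaip1, encoding the BH3-only protein NOXA, at 10.5 RPKM in MEF and 78.2 RPKM in Dox (-), and Eda2r, a death receptor, at 15.8 and 96.4 RPKM. In Dox (+) over Dox (-), 0 were more than 4-fold higher, 1 was more than 4-fold lower, 2, Gadd45a and Tigar, were more than 2-fold higher and 6 more than 2-fold lower, with a median of -0.34 against 0.23 over all tested genes.

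The one past 4-fold was Sesn1, a stress sensor upstream of mTORC1, at 34.4 RPKM in MEF, 51.5 RPKM in Dox (-) and 12.9 RPKM in Dox (+). Its paralogue Sesn2 differed little between the knock-in libraries, at 98.0 RPKM in Dox (-) and 106 RPKM in Dox (+). Gadd45a, a DNA damage response gene, had 90.0 RPKM in MEF, 54.3 RPKM in Dox (-) and 179 RPKM in Dox (+). The death receptor Fas went the other way, with 92.4, 226 and 70.0 RPKM in the same order, and Tnfrsf10b had 129, 169 and 235 RPKM. Listed targets thus lay on both sides.

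Of the regulators of p53, 13 genes under 15 names, 13 were tested and 0 passed 4-fold in Dox (+) over Dox (-) or in Dox (-) over MEF. Between Dox (-) and Dox (+), 0 were more than 2-fold higher and 2 more than 2-fold lower. These were Chek1, a checkpoint kinase, at 12.7 RPKM in Dox (-) and 4.30 RPKM in Dox (+), and Mdm4, the partner of Mdm2 in holding p53, at 79.8 RPKM in MEF, 84.8 RPKM in Dox (-) and 40.2 RPKM in Dox (+). The damage kinases had 61.7, 71.6 and 58.1 RPKM for Atm and 43.6, 23.4 and 18.2 RPKM for Atr in the same order, and Chek2 had 30.1, 22.5 and 16.7 RPKM.

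The 4 other CDK inhibitor genes had another order than Cdkn1a and Cdkn2b. All 4 had their lowest level in Dox (+) and their highest in MEF. Cdkn1b, encoding p27, had 117 RPKM in MEF, 50.2 RPKM in Dox (-) and 42.1 RPKM in Dox (+). Cdkn1c, encoding p57, had 71.9, 42.5 and 20.4 RPKM, and Cdkn2c, encoding p18Ink4c, had 55.6, 36.0 and 12 RPKM. Cdkn2d, encoding p19Ink4d, was nearly level in MEF and Dox (-), at 21.4 and 20.7 RPKM, with 11.6 RPKM in Dox (+). In Dox (+) over Dox (-), 2 of the 4, Cdkn1c and Cdkn2c, were more than 2-fold lower, against 11.1% of all tested genes.

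Among 14 genes of the cyclin D, CDK and RB arm that these inhibitors act on, 13 were tested. In Dox (-) over MEF 1 was more than 4-fold higher, Ccnd2, encoding cyclin D2, at 154 RPKM in MEF, 698 RPKM in Dox (-) and 755 RPKM in Dox (+). In Dox (+) over Dox (-), 0 passed 4-fold, 2 were more than 2-fold higher and 1, Ccne2, more than 2-fold lower. The higher pair were Ccnd1, encoding cyclin D1, at 214 RPKM in MEF, 368 RPKM in Dox (-) and 891 RPKM in Dox (+), and Ccnd3, encoding cyclin D3, at 257 RPKM in Dox (-) and 583 RPKM in Dox (+). Cdk4, the target of p16Ink4a and p15Ink4b, had 5522, 2803 and 3347 RPKM, Cdk6 had 10.9, 28.3 and 51.7 RPKM, and Cdk2 had 70.9, 59.7 and 57.5 RPKM.

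Of 12 known repressors of the Ink4-Arf locus, 0 passed 4-fold in Dox (+) over Dox (-), and 1 passed 2-fold in each direction, Cbx7 higher and Id1 lower. Bmi1, a Polycomb protein that keeps the locus silent, had 426 RPKM in MEF, 415 RPKM in Dox (-) and 456 RPKM in Dox (+). Ezh2, the Polycomb methyltransferase, had 81.8, 61.3 and 42.7 RPKM, and Cbx8 had 20.6, 25.2 and 25.1 RPKM. In Dox (-) over MEF 2 of 11 tested repressors passed 4-fold, the T-box genes Tbx2 and Tbx3, with 1 read each in MEF against 56 and 57 reads in Dox (-). Cbx7 was low throughout, at 1.52, 5.05 and 11.4 RPKM.

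Of 6 known activators of the locus, 6 were tested and 0 passed 2-fold in Dox (+) over Dox (-) or in Dox (-) over MEF. Ets1 had 61 RPKM in MEF, 93.2 RPKM in Dox (-) and 129 RPKM in Dox (+), and Ets2 had 90.5, 79.9 and 64.4 RPKM. Dmtf1, an activator of p19Arf, lay between 145 and 152 RPKM in the 3 libraries. Kdm6b, a demethylase of the Polycomb mark, had 69.1, 106 and 66.0 RPKM.

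Most proliferation genes had their lowest level in Dox (+), where Cdkn1a had its highest. Of 12 genes, 12 were tested, and in Dox (+) over Dox (-) 4 were more than 4-fold lower and 8 more than 2-fold lower, against 5.41% and 11.1% of all tested genes, with 0 higher. In Dox (-) over MEF, 0 passed 4-fold and 3, Ccnb1, Cdk1 and Mcm6, were more than 2-fold lower. Mki67, the Ki-67 antigen, had 80.4 RPKM in MEF, 61.3 RPKM in Dox (-) and 3.16 RPKM in Dox (+). Top2a had 211, 114 and 19.1 RPKM, Ccna2 had 127, 74.5 and 13.4 RPKM, and Bub1 had 43.2, 24.2 and 4.65 RPKM. The mitotic genes Ccnb1 and Cdk1 followed, at 60.7, 28.2 and 8.0 RPKM and at 281, 137 and 52.8 RPKM. The replication gene Mcm2 did not, with 69.0, 41.6 and 59.0 RPKM, and Mcm3 had 111, 84.8 and 45.5 RPKM.

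Of 13 senescence markers and secreted factors, 12 were tested. In Dox (-) over MEF, 6 were more than 4-fold higher, against 8.26% of all tested genes. Among them were Igfbp3 (14.8 RPKM in MEF and 2173 RPKM in Dox (-)), Igfbp5 (3.13 and 353 RPKM), Ccl2 (26.2 and 674 RPKM), Mmp3 (1.07 and 158 RPKM) and Il6 (1.33 and 42.1 RPKM). In Dox (+) over Dox (-), 3 were more than 4-fold lower, against 5.41% of all tested genes, namely Igfbp3 at 180.3 RPKM, Igfbp5 at 28.2 RPKM and Cxcl1 at 3.37 RPKM in Dox (+) against 40.6 RPKM in Dox (-). Mmp3 and Il6 had 201 and 69.6 RPKM in Dox (+). At 2-fold in Dox (+) over Dox (-), 1 was higher, against 10.8% of all tested genes, and 4 were lower, against 11.1%. The higher one was Timp1, at 3742 RPKM in Dox (-) and 7543 RPKM in Dox (+). The median log2 fold change there was -0.42, against 0.23 over all tested genes.

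Markers whose decrease is known in senescent cells were lowest in Dox (+). Lmnb1, encoding lamin B1, had 109 RPKM in MEF, 59.1 RPKM in Dox (-) and 36.8 RPKM in Dox (+), and Hmgb1 had 701, 335 and 285 RPKM. Glb1, the gene of the senescence-associated galactosidase, was also lowest in Dox (+), with 281, 180.5 and 149.7 RPKM. Igfbp7 had 1535, 2984 and 2563 RPKM. Macrophages also express Ccl2, Il6 and Cxcl1, and the macrophage markers above were highest in Dox (-), where Ccl2 and Cxcl1 were highest too. Their part in these levels was not tested. Of 8 melanocyte markers, 4 were tested and 3 passed 4-fold upward from Dox (-) to Dox (+), with summed levels of 5.90 RPKM in MEF, 45.5 RPKM in Dox (-) and 1808 RPKM in Dox (+). The list holds Mitf, the induced gene, which gave 30.8 RPKM of the sum in Dox (-) and 1544 RPKM in Dox (+). The other two were Tyrp1 and Mlana, at 109.6 and 133 RPKM in Dox (+).

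**Figure D5:**
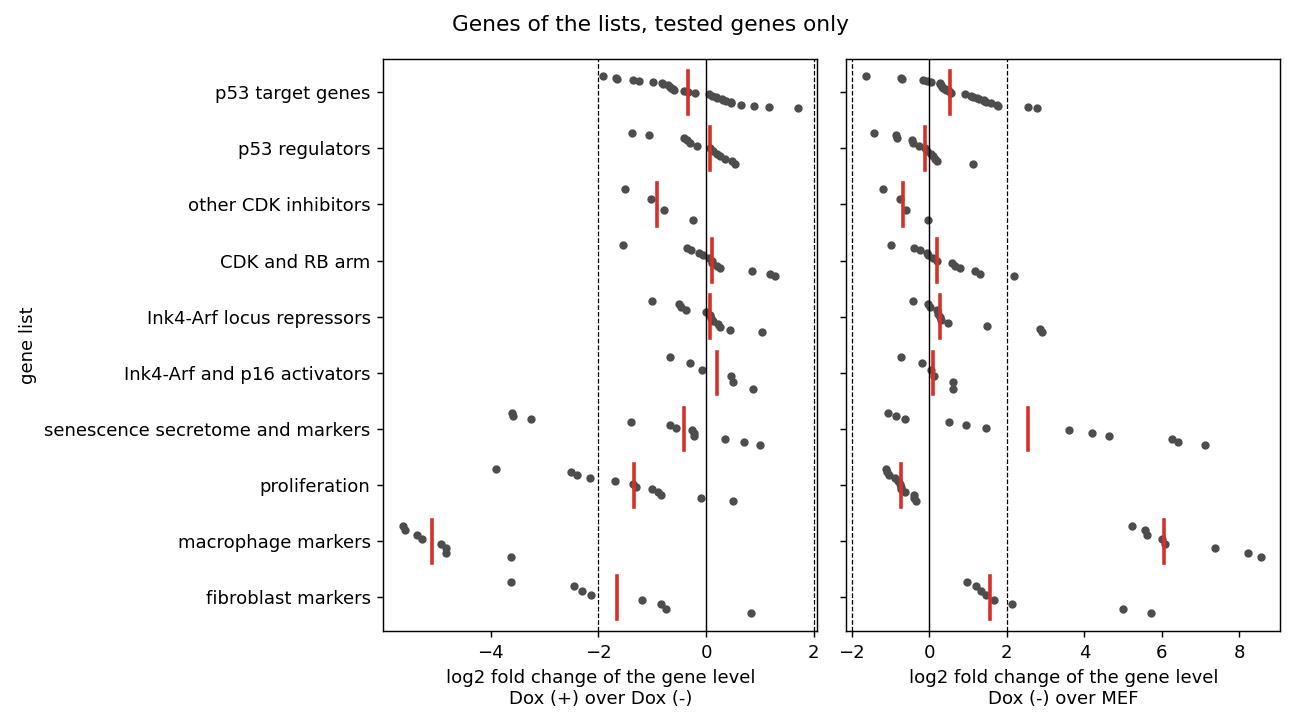
Log2 fold changes with a pseudocount of 1 RPKM (points, tested genes only) and their medians (red bars) for 10 gene lists, Dox (+) over Dox (-) on the left and Dox (-) over MEF on the right; dashed lines mark a log2 change of 2 in either direction. The median lies at -0.34 on the left and 0.54 on the right for p53 targets, at -1.33 and -0.74 for proliferation genes, and at -5.10 and 6.04 for macrophage markers.

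Promoter sequences of the members were searched for the letters that MITF and p53 are known to bind, because Dox induced Mitf and most members are p53 targets. RefSeq windows of 300 bases (GRCm38.p6), from 250 bases before to 50 after a start, were at hand for 9 of the 10 genes, 13 windows in all. The E-box CACGTG, which reads alike on both strands, was in 3 of the 13 windows, of Trp53, Bax and Bbc3, against 7.15% of all 32851 windows. The E-box CATGTG, searched on both strands, was in 0 of the 13, against 14.2% of all windows. Trp53, the member with the largest fold from Dox (-) to Dox (+), and Bax, among those with the smallest, are shown with 1 E-box in capitals. The window of Bax holds 2, of which the one at 9 bases before the start is shown and the other lies 35 bases after it.
Trp53, chr11:69580357-69580386, plus strand: actttcccctccCACGTGctcaccctggct
Bax, chr7:45466890-45466919, minus strand: agcgatgatgatCACGTGactagtcctgcg

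The p53 consensus decamer, searched on both strands with no mismatch, was in 5 of the 13 windows, those of Cdkn1a, Trp53, Mdm2, Ccng1 and Bax, against 8.36% of all windows. Cdkn1a is shown because 2 decamers lie close together at 73 and 51 bases before the upstream RefSeq start of the gene, and Mdm2 and Ccng1 because their levels followed Cdkn1a from MEF to Dox (-). The window of Mdm2 lies at the start of exon 1, which had 0, 0 and 3 reads, and does not reach the first intron. Capitals mark the decamers. In Cdkn1a the bases right after the second decamer come near the consensus but hold a mismatch, so they stay in lower case. The capitals thus do not show which decamers pair.
Cdkn1a, chr17:29090896-29090947, plus strand: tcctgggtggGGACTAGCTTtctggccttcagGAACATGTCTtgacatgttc
Mdm2, chr10:117710925-117710954, minus strand: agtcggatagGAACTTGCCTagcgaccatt
Ccng1, chr11:40755452-40755481, minus strand: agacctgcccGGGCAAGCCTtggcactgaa
The decamer was in no window of Cdkn2a, Cdkn2b, Bbc3 or Phlda3. These are matches of letters in short windows. Bax, whose highest exon was close in all 3 libraries, holds both motifs, and Phlda3, which was 2.56-fold higher in Dox (-) than in MEF, holds neither.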

How the data were processed

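The authors prepared libraries with a TruSeq v2 kit, aligned reads to mm10 with TopHat 2.0.10, counted them on Ensembl exons with bedtools and deposited RPKM per exon. Base calling used bcl2fastq 2.17.1.14 per the labels. Strand and the handling of spliced reads in counting are not given in the sources used here. Columns were assigned to libraries by name, and 1 column whose name matched no library was not used.

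Of 234718 exons, 228132 matched GENCODE M21, which gave genes and coordinates. Levels used protein coding, lincRNA and pseudogene genes. Reads were recovered as whole numbers within 0.02 read for values under 200 reads, and ratios carry exact conditional binomial intervals. No p-values were computed. Steps were tested on simulated data. SciPy 1.17.1 gave the intervals, tables were handled with pandas 2.3.3 on Python 3.11.15, NumPy 2.4.6 did the arithmetic and matplotlib 3.10.9 the drawing.

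The members and gene lists were chosen with earlier results of these data known. Beside the 10 members, the text names each listed gene past 4-fold in Dox (+) over Dox (-) or Dox (-) over MEF, at most 4 further genes per list in list order, and 3 genes nearest in pattern to Cdkn2a and to Cdkn1a. One such listed gene is not reported here. Further genes named beside a count were chosen after their values were seen.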

Additional observations from a re-analysis of the deposited data

How the results depend on the processing

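The counts of members more than 4-fold higher were 0, 1 and 1 for Dox (+) over Dox (-), Dox (-) over MEF and Dox (+) over MEF, and those of lower members were 0 in each. With a threshold of 2-fold they were 1, 5 and 5 higher and 0 lower. With a threshold of 2-fold and libraries rescaled to a median log2 ratio of 0, an alternative chosen after seeing the data, they were 0, 5 and 5. Taking a length-weighted mean over exon positions in place of the highest exon gave 2 higher members in Dox (+) over MEF. With the same exon in both libraries, also chosen after seeing the data, they were 0, 1 and 2 at 4-fold and 1, 5 and 6 at 2-fold, with Mdm2 (log2 2.10 in place of 1.68) and Cdkn2a (1.16 in place of 0.98) added in Dox (+) over MEF. Removing the filter on low values, lowering it to 1 RPKM or rescaling the libraries alone gave the same counts as the main setting.

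Of 30 single log2 fold changes, the sign turned in 3 on rescaling and in 2 with the length-weighted mean. Rescaling gave -0.11 for Cdkn2b and -0.13 for Bax in Dox (+) over Dox (-), and -0.18 for Bax in Dox (+) over MEF. The length-weighted mean gave -0.0072 for Ccng1 and -0.20 for Zmat3 in Dox (+) over Dox (-), where the long last exon carries the most weight. Pseudocounts of 0.1 and 5 RPKM and the use of the same exon in both libraries turned 0 signs. The latter moved 3 values, which in the main setting lay outside the counting interval of that exon. They were Cdkn2a in Dox (-) over MEF and in Dox (+) over MEF, and Mdm2 in Dox (+) over MEF. No paired analysis was possible because the result comes from no test. Depth limited low exons such as exon 1 of Mdm2. On an exon of 150 bp, 3 reads correspond to 0.444 RPKM in MEF and Dox (-) and 0.455 RPKM in Dox (+).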
